A study of Homo sapiens with 6 samples.

Results

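The baseline transcriptome described here is that of D283 Med cells that received a control oligonucleotide, read from the 3 libraries labelled SCR among the 6 libraries of the series. D283 Med is an established human medulloblastoma cell line that came from a metastatic deposit of the tumour, and the labels assign it to Group 3 and call it MYC-amplified. The cells of all 6 libraries were transfected with LNA GapmeRs, which are short antisense oligonucleotides with locked ends that direct RNase H to a matching RNA. The 3 control libraries carried the scrambled GapmeR, and the other 3, against the long non-coding RNA lncMB3, enter no value below. The baseline is therefore that of transfected cells of 1 line, and untransfected cells were not analysed here. The labels number the control libraries 1 to 3 without saying that they came from separate cultures, so each SD below may hold technical spread alone.

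Medulloblastoma is a tumour of the developing cerebellum that is divided into the WNT, SHH, Group 3 and Group 4 subgroups. Group 3 tumours often carry extra copies of MYC, a transcription factor that drives growth and proliferation, and they express genes of retinal photoreceptors. OTX2, a homeobox factor of the forebrain, midbrain and retina, is commonly high in Group 3 and Group 4, and it acts upstream of CRX, the homeobox factor that switches on photoreceptor genes. Levels below are CPM, a gene's counts scaled to a library total of 1000000, given for libraries 1, 2 and 3 in that order. Levels of different genes are compared as CPM per kilobase (kb) of merged exons, and an order by CPM, which ranks shares of the counts, is named as such. A gene's rank is its place among 19877 nuclear protein-coding genes by CPM per kb, with 1 the highest, and its percentile is the percentage of those genes below it, with ties placed at their middle. A gene was called detected where it reached 1 CPM in each of the 3 libraries.

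The control libraries held 17072573, 20035834 and 17351552 counts, so 1 CPM stood for 17.07, 20.04 and 17.35 counts. A floor of 3 counts corresponded to 0.176, 0.150 and 0.173 CPM, and these limits cover counting error only. Of 60664 genes, 13150 were detected (21.7%), among them 11945 of the 19877 nuclear protein-coding genes (60.1%) and 745 of 15842 long non-coding genes (4.7%). A further 5638 protein-coding genes (28.4%) stayed under 3 counts in each library, 4302 of them at 0 in all 3. Counts of detected members of any list or family below are to be read beside the 60.1% and 4.7% given here. Library 1 stood somewhat apart from the other 2. Of 11079 genes averaging 5 CPM or more, 277 differed by at least 1.5-fold between libraries 1 and 3 and 175 between libraries 1 and 2, against 62 between libraries 2 and 3. The genes concerned are described at the end, and some of the means that library 1 lowers are given with and without it.

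Counts were spread over many genes. The 10 highest genes took 8.26% ± 0.171 of all counts (mean and SD, n = 3, as for all such values below) and the 100 highest took 25.6% ± 0.396. The 86 ribosomal protein genes took 10.4% ± 0.293 and the 37 mitochondrially encoded genes took 6.16% ± 0.278, while all long non-coding genes together took 0.922% ± 0.0613. The highest gene by CPM was EEF1A1, the elongation factor that brings aminoacyl-tRNA to the ribosome, at 18237 ± 800 CPM. MT-CO1, a subunit of cytochrome c oxidase, followed at 17289 ± 964 CPM, and the first nuclear gene outside translation was ACTG1, cytoplasmic gamma-actin, at 6187 ± 565 CPM. The other 7 of the 10 highest were MT-RNR2, MT-ND4, MT-CO3, EEF2, MT-CO2, RPS2 and RPL4, so 5 of the 10 were mitochondrially encoded and 4 were genes of translation.

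Apart from ribosomal protein, elongation factor and mitochondrial genes, the 10 highest protein-coding genes per kb were cytoskeletal, chaperone and metabolic genes together with genes of particular tissues. ACTG1 led at 2067 CPM per kb, 4.44 ± 0.0626 times the level of ACTB, the beta form of cytoplasmic actin. HSP90AB1, a chaperone, stood at 1082 CPM per kb, and NNAT, a small imprinted membrane protein of the developing nervous system, at 1032 ± 50.4. NNAT thus ranked 14 of all protein-coding genes, above GAPDH at 878. The remaining members were TMSB4X at 1026, TUBB at 993, TUBA1B at 989, LAPTM4B, a lysosomal membrane protein encoded on chromosome 8, at 836, PRDX1 at 797 and PABPC1 at 794. The median detected protein-coding gene stood at 5.69 CPM per kb, the 90th percentile of detected genes at 31.1 and the 99th at 218, and these values give the scale for the levels below.

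The identity of the line was read first from 6 marker genes, MYC, OTX2, IMPG2, GABRA5, NEUROD1 and CRX, all of which were detected. MYC was at 1151, 1126 and 1318 CPM, a mean of 1198 ± 104. Per kb it stood at 399 ± 34.8 and ranked 58 in the mean and between 48 and 67 in single libraries, well above the 99th percentile of detected genes. ACTB was 1.17 ± 0.0240 times as high as MYC per kb, so the transcription factor reached nearly the level of a cytoskeletal housekeeping gene. OTX2 (chr14:56799905-56810479 on the minus strand, GRCh38) was at 826.6, 941.5 and 934.3 CPM, a mean of 901 ± 64.3 and 275 ± 19.7 CPM per kb, rank 91. Library 1 was the lowest for OTX2, and the libraries spanned 1.14-fold. IMPG2, a proteoglycan of the matrix around photoreceptors (chr3:101222546-101320560, minus strand), was at 315, 347 and 354 CPM, or 40.6 ± 2.51 CPM per kb. GABRA5, the alpha-5 subunit of the GABA-A receptor, was at 82.8, 72.3 and 70.0 CPM, or 18.1 ± 1.64 CPM per kb, and was the only marker of the 6 highest in library 1.

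The other markers were lower. NEUROD1, a basic helix-loop-helix factor of differentiating neurons and photoreceptors, was at 32.4, 34.3 and 38.1 CPM, or 10.5 ± 0.875 CPM per kb. CRX (chr19:47819779-47843330, plus strand) was at 41.5, 50.7 and 63.9 CPM, or 8.69 ± 1.88 CPM per kb. The order per kb was MYC, OTX2, IMPG2, GABRA5, NEUROD1 and CRX, and only NEUROD1 and CRX overlapped between libraries. OTX2 exceeded CRX 32.4 ± 5.04 times per kb. CRX varied most of the 6, by 1.54-fold between libraries 1 and 3, and its mean of 52.0 ± 11.3 CPM was 57.3 without library 1.

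A published assay sorts medulloblastomas into subgroups with 22 genes, and the control libraries were read against each of its 4 gene groups. All 6 Group 3 genes were detected, with a median percentile of 92.1, beside 60.1% of protein-coding genes detected overall. MAB21L2, a gene of eye and midbrain development, was at 664, 683 and 740 CPM and 251 ± 14.2 CPM per kb. It therefore stood close to OTX2, at 0.913 ± 0.0493 of its level per kb. Its exons share 53.8% of their bases with LRBA on the opposite strand, which was at 101 CPM. NPR3, the clearance receptor for natriuretic peptides, was at 433, 445 and 442 CPM, or 44.6 ± 0.614 CPM per kb, and had nearly the same level in the 3 libraries. IMPG2 and GABRA5 belong to this group with the values above. NRL, the leucine-zipper factor that directs rod fate, was much lower, at 5.10, 7.54 and 7.55 CPM and 2.16 ± 0.454 CPM per kb, and 9.41% of its exon bases lie under DCAF11 on the opposite strand, at 67.7 CPM. EYS, an extracellular photoreceptor protein, was at 5.92, 6.84 and 6.17 CPM, which its long exons bring to 0.369 ± 0.0279 CPM per kb, under the median detected gene.

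The genes of the other subgroups were mostly near or at 0. Of 6 Group 4 genes, 3 were detected, namely RBM24, an RNA-binding protein, at 9.05 ± 1.19 CPM, KHDRBS2, a splicing regulator, at 1.29 ± 0.201 and UNC5D, a netrin receptor, at 1.28 ± 0.246. EOMES, a T-box factor of unipolar brush and forebrain progenitor cells, averaged 0.13 CPM, and KCNA1 and OAS1 had 0 counts in each library. Of 5 SHH genes, only PDLIM3, a PDZ and LIM domain protein, was detected, at 24.6, 21.7 and 24.2 CPM. HHIP, a target and inhibitor of Hedgehog signalling, was at 0.703, 1.747 and 1.498 CPM and missed the detection level in library 1. ATOH1, the factor of granule neuron precursors, had 0 counts in all 3. Of 5 WNT genes, only TNC, an extracellular matrix protein, was detected, at 1.40 ± 0.309 CPM, while WIF1, GAD1, DKK2 and EMX2 had 0 counts in each library. A count of 0 over the 54459959 counts of the 3 libraries allows a level of up to 0.0551 CPM.

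**Figure D1:**
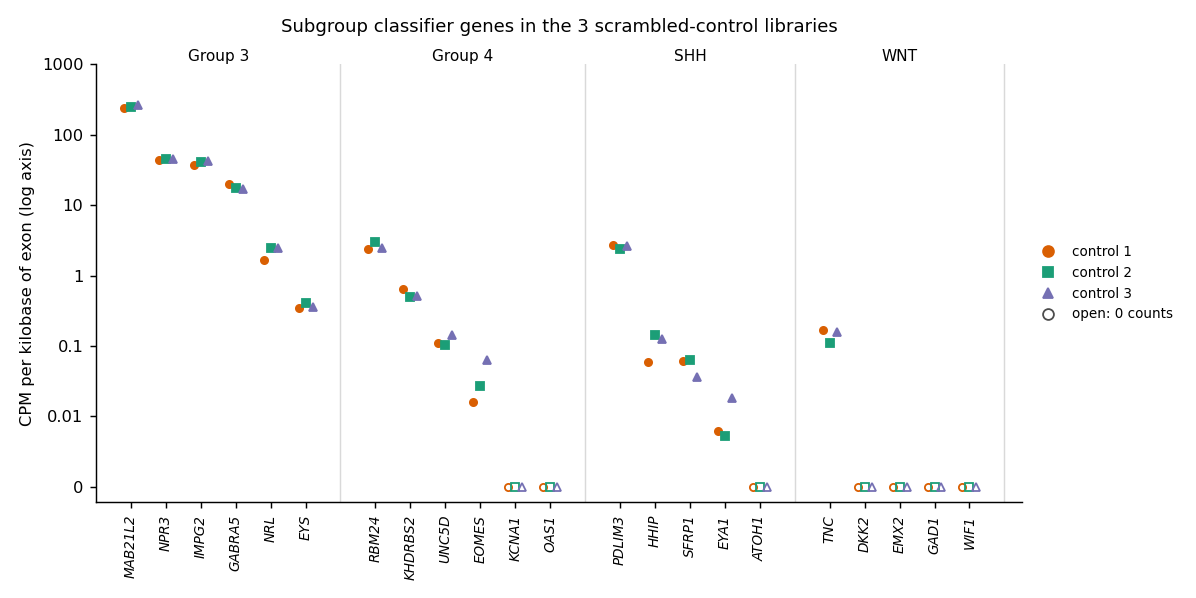
CPM per kilobase of exon on a logarithmic axis for the 22 classifier genes, grouped by subgroup, with 1 symbol for each control library. Open symbols at the base, at the tick labelled 0, mark 0 counts. The 4 highest genes, MAB21L2, NPR3, IMPG2 and GABRA5, all belong to Group 3, NRL and EYS lie lower, and 4 of the 5 WNT genes sit at 0.

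Around MYC itself, nearly the whole network of partners and antagonists was present. MYC binds DNA as a dimer with MAX, and MXD, MXI1, MNT and MGA proteins compete for MAX. Of 17 genes of this network, 16 were detected. MAX was at 52.7, 41.2 and 46.0 CPM, or 10.5 CPM per kb, so MYC exceeded its obligate partner 38.3 ± 5.32 times per kb. This ratio was 32.3, 40.4 and 42.3 in the 3 libraries. MLX, which pairs with the glucose-sensing relatives of MYC, was at 14.7 CPM per kb, MXI1 at 8.46, ZBTB17, a zinc-finger partner of MYC in repression, at 6.80, MXD4 at 5.66, MXD3 at 4.24, MNT at 2.77 and MGA at 2.19. All of the antagonists were thus below MAX, although MXI1 overlapped it between libraries.

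MYC was the dominant member of its own family. MYCL was at 17.9, 23.7 and 25.7 CPM, and MYC exceeded it 91.8 ± 14.7 times per kb. MYCN was the network gene not detected, at 0.469, 0.749 and 0.922 CPM, or 8, 15 and 16 counts.

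Neighbours of MYC on chromosome 8 were examined because its amplified segment can include adjoining genes, whose extent these data do not give. Within 5 Mb on either side, 28 of 39 protein-coding genes, MYC itself included, were detected (71.8%, beside 60.1% overall). The median percentile of the 39 genes with MYC left out was 66.4. ATAD2, a chromatin ATPase and MYC cofactor, was the next highest of them at 427.5, 468.3 and 426.1 CPM, or 61.9 ± 3.37 CPM per kb. SQLE, the squalene epoxidase of cholesterol synthesis, was at 59.8 CPM per kb, NDUFB9, a subunit of respiratory complex I, at 59.6 and LRATD2 at 39.8. No detected neighbour came within a factor of 5 of MYC. Of 54 long non-coding genes in the window, 3 were detected, beside 4.7% of all long non-coding genes. PVT1, which begins downstream of MYC and is often gained with it, was at 14.2, 17.1 and 17.4 CPM, or 2.96 CPM per kb. MYC exceeded PVT1 136 ± 14.1 times per kb. CASC8 was at 1.97 ± 0.328 CPM and RNF139-DT at 1.99.

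The retinal programme was read by role, beginning with transcription factors. Of 12 photoreceptor factors, 8 were detected (66.7%), a share close to the 60.1% of all protein-coding genes. OTX2 was the highest per kb, and MEF2D, a cofactor of CRX in photoreceptors that is also widely expressed, came next at 70.9, 81.1 and 88.4 CPM, or 12.5 CPM per kb. NEUROD1, CRX and NRL followed with the values above, and MEF2D overlapped NEUROD1 between libraries. RORB, a nuclear receptor required for rod differentiation, was at 4.04, 8.14 and 7.09 CPM, a mean of 6.42 that was 7.61 without library 1. THRB, the thyroid hormone receptor of cone opsin patterning, was at 2.23, 3.64 and 2.48 CPM and PRDM1, which separates rods from bipolar cells, at 2.34, 3.00 and 2.65 CPM. NR2E3, the nuclear receptor that represses cone genes in rods, had 0, 1 and 3 counts, and RAX, the early eye-field factor, had 1 count in each library. OTX2 was thus higher than each of the others by more than a factor of 20 per kb. The 6 factors at 5 CPM or more were all lowest in library 1, which was the lowest library for 43.1% of such genes overall.

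CRX and OTX2 recognise the same short core, TAATCC, whose reverse complement is GGATTA. The 250 bases before the RefSeq start of 4 photoreceptor genes (GRCh38.p14) are shown to set this core beside expression, with capitals marking each copy of the 6-letter core in either direction and positions counted backwards from the start as negative numbers. CRX (chr19:47821687-47821936, plus strand) and GUCA1A (chr6:42173114-42173363, plus strand) were detected and hold the core. OPN1SW (chr7:128775795-128776044, minus strand) had 0 counts and holds it, and IMPG2 (chr3:101320576-101320825, minus strand) was the highest photoreceptor structural gene and lacks it.
CRX: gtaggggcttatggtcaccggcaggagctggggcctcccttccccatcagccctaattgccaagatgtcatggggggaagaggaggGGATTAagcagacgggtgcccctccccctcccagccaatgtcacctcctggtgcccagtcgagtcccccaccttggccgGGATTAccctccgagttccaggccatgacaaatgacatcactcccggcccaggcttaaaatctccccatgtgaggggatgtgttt
GUCA1A: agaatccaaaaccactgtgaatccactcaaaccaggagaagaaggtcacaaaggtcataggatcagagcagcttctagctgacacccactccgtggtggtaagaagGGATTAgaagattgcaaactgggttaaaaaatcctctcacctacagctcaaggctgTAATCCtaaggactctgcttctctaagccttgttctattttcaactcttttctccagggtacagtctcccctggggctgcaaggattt
OPN1SW: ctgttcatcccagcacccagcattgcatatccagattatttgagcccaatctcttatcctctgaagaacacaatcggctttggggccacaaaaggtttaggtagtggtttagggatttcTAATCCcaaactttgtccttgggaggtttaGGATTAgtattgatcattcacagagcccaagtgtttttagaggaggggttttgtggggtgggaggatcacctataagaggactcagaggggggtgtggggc
IMPG2: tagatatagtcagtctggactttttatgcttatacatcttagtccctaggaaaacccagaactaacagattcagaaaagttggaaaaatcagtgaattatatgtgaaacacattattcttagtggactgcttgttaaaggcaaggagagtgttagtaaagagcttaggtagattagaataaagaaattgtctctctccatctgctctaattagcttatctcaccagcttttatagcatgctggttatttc
The CRX window holds 2 copies of GGATTA, starting at -164 and -85. The GUCA1A window holds 1 copy of each orientation, at -144 and -88, and so does the OPN1SW window, at -131 and -101. Windows were matched for 39 of 54 photoreceptor genes. The core was present in 4 of the 17 detected genes with a window (23.5%) and in 6 of the 22 that were not detected (27.3%). Among all protein-coding genes with a window it was present in 1004 of 15306 (6.56%), and in 5.62% of all 35116 windows. The letters of the core therefore did not separate the detected photoreceptor genes from the others in these windows, and their absence from a window says nothing of binding elsewhere.

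Genes of the light response itself were mostly below detection. Of 12 rod phototransduction genes 3 were detected, beside 60.1% of protein-coding genes. PDE6B and PDE6A, the catalytic subunits of the rod phosphodiesterase that hydrolyses cyclic GMP, were at 13.8, 16.1 and 17.3 CPM and at 6.74, 8.09 and 8.18 CPM. ROM1, an outer segment disc protein, was at 2.18 ± 0.199 CPM, and 24.8% of its exon bases lie under EML3 on the opposite strand, at 36.2 CPM. CNGB1, the beta subunit of the rod channel, was at 0.644, 1.597 and 0.980 CPM. It passed the detection level in library 2 alone.

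Of 11 cone genes 3 were detected. GNB3, the beta subunit of cone transducin, was at 62.8, 93.6 and 111.6 CPM, or 26.0 CPM per kb. It was lowest in library 1 and spanned 1.78-fold, with a mean of 89.4 ± 24.7 CPM that was 103 without library 1. It shares 16.0% of its exon bases with CDCA3 on the opposite strand, at 58.0 CPM. PDE6H, the inhibitory subunit of the cone phosphodiesterase, was at 16.5, 21.6 and 19.6 CPM, or 25.7 CPM per kb, and overlapped GNB3. GNGT2, the gamma subunit of cone transducin, was at 1.54 ± 0.448 CPM. The opsins OPN1SW and OPN1MW and the channel subunit CNGA3 had 0 counts. GNAT2, the alpha subunit of cone transducin, was at 0, 0.399 and 0.231 CPM while 97.0% of its exon bases lie under GNAI3 on the opposite strand, which was at 122 CPM.

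Of 19 genes used by rods and cones alike, 8 were detected. IMPG2 was far above the rest. GUCA1A, which activates the retinal guanylate cyclase when calcium falls, was at 35.5, 49.9 and 51.5 CPM, or 19.5 CPM per kb, and its relative GUCA1B at 2.56 ± 0.189 CPM. TULP1, needed for transport to the outer segment, was at 17.4, 23.1 and 27.2 CPM, and UNC119, a carrier of lipid-modified proteins, at 27.3, 36.2 and 35.6 CPM. ABCA4, the retinoid transporter of the disc membrane, was at 6.25 ± 1.03 CPM. RCVRN, the calcium sensor recoverin, averaged 0.05 CPM and RBP3, the retinoid carrier of the matrix in which IMPG2 lies, 0.09 CPM. All 7 shared genes at 5 CPM or more were lowest in library 1, as were both rod genes and both cone genes at that level. Each of these 4 lists kept the same number of detected members without library 1.

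Some genes of the retinal pigment epithelium and of melanin formation were present as well. Of 11 such genes 4 were detected. DCT, dopachrome tautomerase of the melanin pathway, was at 90.9, 116 and 107 CPM, or 13.9 CPM per kb. RPE65, the isomerase that regenerates visual chromophore, was at 17.6, 20.3 and 17.4 CPM, MITF, the master factor of pigment cells, at 12.9 ± 0.656 and OCA2, a melanosomal channel, at 12.1 ± 1.64. TYR, the rate-limiting enzyme of melanin synthesis, was at 0.302 ± 0.173 CPM and MLANA had 0 counts.

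Eye-field and retinal progenitor genes were detected in 8 of 12 cases (66.7%, close to the 60.1% of all protein-coding genes). The homeobox gene SIX5 led at 48.9, 62.4 and 67.7 CPM, followed by SIX2 at 27.3 ± 0.395 and EYA2, a coactivator of these homeobox factors, at 25.7 ± 3.51. LHX2, required for the optic vesicle, was at 12.3 ± 0.498 CPM. The canonical eye-field genes PAX6 (0.08 CPM), SIX3 (0.643) and SIX6 (0.404) were not detected. Of 14 genes of bipolar, amacrine and ganglion cells 4 were detected, led by the amacrine factor PRDM13 at 11.3 ± 0.257 CPM. GRM6, POU4F2, ATOH7, PTF1A and TFAP2B of those cells had 0 counts.

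**Figure D2:**
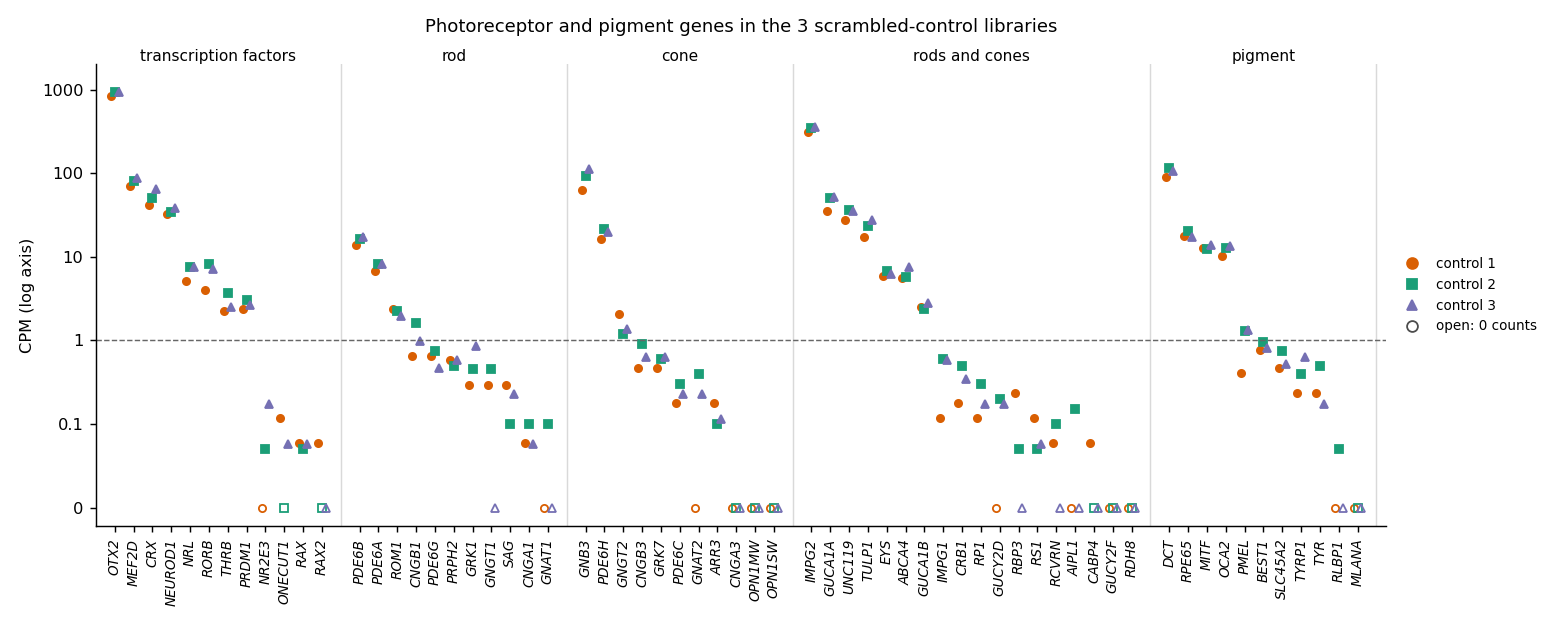
CPM on a logarithmic axis for photoreceptor and pigment genes by role, with 1 symbol for each control library (some members not shown). A dashed line marks the 1 CPM detection level, and open symbols at the tick labelled 0 mark 0 counts. Each gene is read against the detection level and between libraries, not against other genes, and the cone opsins OPN1SW and OPN1MW lie at 0.

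Genes of the cerebellum and of other brain regions gave a mixed pattern. In the rhombic lip, the germinal zone from which glutamatergic cerebellar neurons arise, 4 of 10 genes were detected. WLS, which carries WNT proteins to the surface and marks the interior rhombic lip, was at 353, 374 and 395 CPM, or 83.6 CPM per kb, rank 376. TBR1, a T-box factor of glutamatergic neurons, was at 306, 372 and 409 CPM, or 37.7 CPM per kb, and was lowest in library 1. MSX1, of the roof plate, was at 26.3 ± 4.04 CPM and BARHL2 at 2.87 ± 0.296. ATOH1, LMX1A and BARHL1 had 0 counts, so TBR1 and WLS were high without these members of the list.

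Of 15 granule neuron genes, 9 were detected, a share close to the 60.1% of all protein-coding genes. CBLN1, the synapse organiser secreted by granule cells, was at 109.1, 111.8 and 121.5 CPM, or 44.0 CPM per kb, and ZIC1 at 59.8 ± 1.80 CPM. RELN, the secreted guide of neuronal migration, was at 14.9 ± 2.16 CPM, and GABRA6, the GABA-A subunit of mature granule cells, at 3.54 ± 0.444. ETV1 had 0 counts. Of 13 Purkinje and GABAergic genes 3 were detected, the calcium-binding CALB1 at 20.6 ± 1.6 CPM, the calcium channel ITPR1 at 18.4 ± 1.31 and the nuclear receptor RORA at 6.63 ± 1.61. Of 10 genes of the midbrain-hindbrain boundary 1 was detected, EN1 at 2.72 ± 0.0839 CPM, while its relative EN2 was at 0.08 CPM.

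Forebrain genes were detected in 3 of 8 cases. BCL11B, which sets the identity of projection neurons in the cortex, was at 27.0, 22.9 and 26.7 CPM. EMX1, DLX1, DLX2, DLX5 and NKX2-1, which pattern the dorsal and ventral telencephalon, were not detected.

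Whole transcription factor families were then counted from their symbols. None of 9 PAX, 6 GATA and 6 Iroquois genes was detected, and 5 PAX genes had 0 counts in all libraries. All 7 MEIS and PBX genes and all 3 GLI genes were detected. GLI2 and GLI3, effectors of Hedgehog signalling, were at 37.2 ± 2.32 and 21.3 ± 1.19 CPM, and GLI1, its usual target gene, was at 6.81 ± 1.28. Of 39 HOX genes, which pattern the axis behind the cerebellum, 10 were detected and 17 had 0 counts. HOXA7 at 13.6 ± 1.91 CPM, HOXC8 at 9.99 ± 1.36 and HOXC9 at 7.33 ± 0.515 were the highest per kb, so trunk-level genes of the HOXC cluster were low but present.

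Of 19 SOX genes 10 were detected. SOX12 was at 138 ± 7.41 CPM and SOX9 at 79.5 ± 7.56 CPM, while SOX1 and SOX2, the SOX genes of neural stem cells, had 0 counts in each library. Among basic helix-loop-helix factors of neurogenesis 4 of 10 were detected, NEUROG1 at 78.5, 81.7 and 96.9 CPM, ATOH8 at 150 ± 2.61, NEUROD1, and NEUROD2 at 1.78. Per kb NEUROG1, at 51.4, stood above NEUROD1. LHX8, a LIM factor of basal forebrain cholinergic neurons, was at 165, 186 and 193 CPM and was the highest of 5 detected among 12 LIM homeobox genes.

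**Figure D3:**
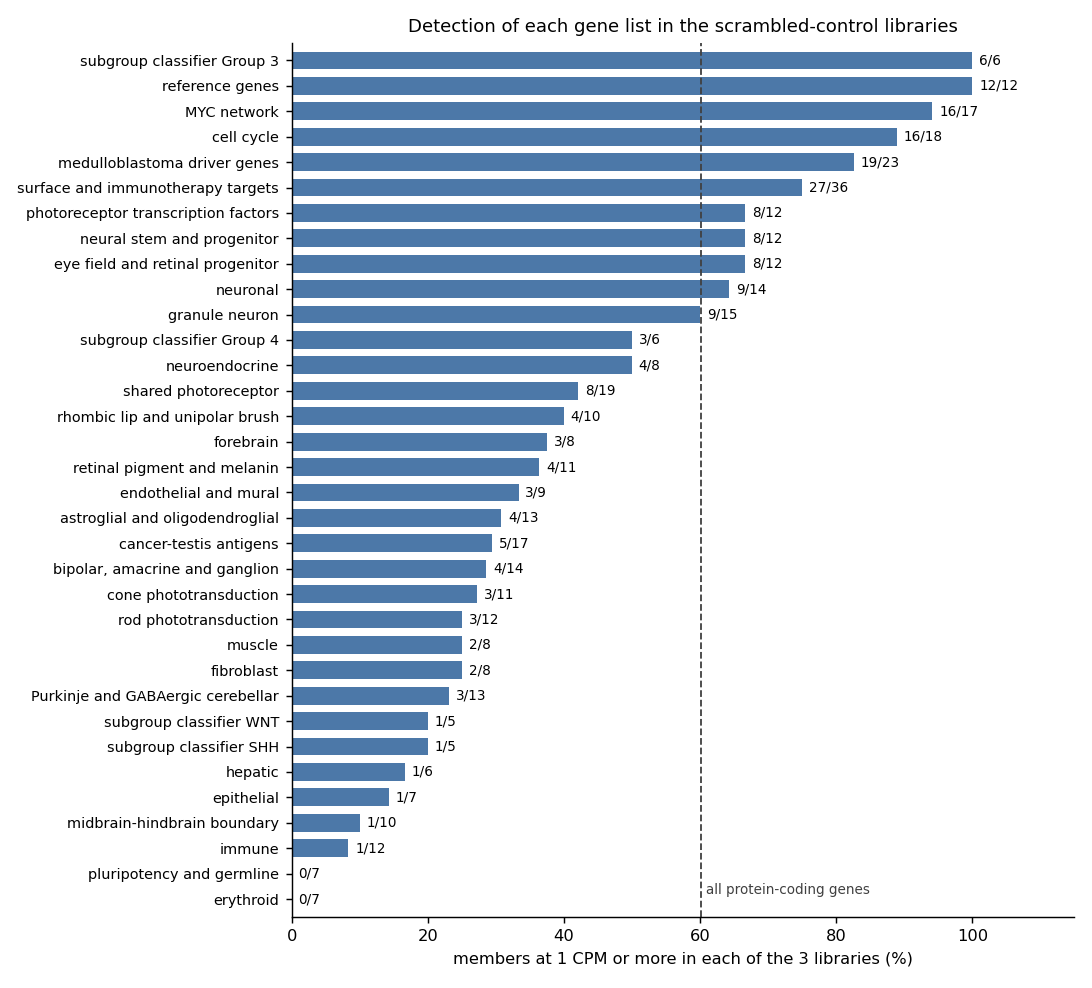
Percentage of each gene list at 1 CPM or more in each of the 3 control libraries, with the number of members detected and listed beside each bar. The dashed line marks the 60.1% of all nuclear protein-coding genes that were detected, and the Group 3 classifier and reference genes reach 100% while the erythroid and pluripotency lists have 0 members detected.

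Genes of neural stem cells and of neurons were present in part. Of 12 stem and progenitor genes 8 were detected (66.7%), a share close to the 60.1% of all protein-coding genes. VIM, the intermediate filament of progenitors and mesenchyme, was at 855, 936 and 970 CPM, or 178 CPM per kb. PROM1, the surface antigen CD133, was at 84.2 ± 8.31 CPM, NES, the filament of neural progenitors, at 60.8 ± 2.12, and MSI1, an RNA-binding protein of stem cells, at 36.3 ± 4.64. HES5, a Notch target, had 0 counts like SOX1 and SOX2.

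Of 14 neuronal genes 9 were detected (64.3%, close to the 60.1% of all protein-coding genes), with neurofilaments at the head. NEFH, the heavy neurofilament, was at 680, 538 and 594 CPM, or 160 CPM per kb, NEFM at 192 ± 4.53 CPM and NEFL at 84.02 ± 10.03. NEFH exceeded NEFL 8.35 ± 1.82 times per kb. SYT1, the calcium sensor of synaptic vesicles, was at 106, 116 and 125 CPM. In contrast, the tubulin TUBB3 was at 2.36 ± 0.607 CPM and the migration protein DCX at 1.65 ± 0.454, both general markers of young neurons, and STMN2, ELAVL4 and GAP43 had 0 counts. The axonal filaments were thus high without most early neuronal genes.

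Neuroendocrine genes were similarly divided, with 4 of 8 detected. UCHL1, a neuronal deubiquitinase, was at 340, 312 and 300 CPM, or 139 CPM per kb, and ENO2, neuron-specific enolase, at 348, 375 and 407 CPM, or 87.9 CPM per kb. The granule protein CHGA was at 1.63 ± 0.245 CPM. Of 13 glial genes 4 were detected. The oligodendrocyte genes MBP, MOG and SOX10 had 0 counts in each library, as had FABP7 and ALDH1L1, and OLIG2 was at 4.16 ± 0.647 CPM. SLC1A3, the astrocytic glutamate transporter, was at 29.04 ± 1.69 CPM and GFAP at 0.02.

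The cells carried a proliferative programme, with 16 of 18 cell cycle genes detected at a median percentile of 94.0. TOP2A, the topoisomerase of dividing cells, was at 937, 1043 and 907 CPM, or 149 CPM per kb, PCNA, the replication clamp, at 236, 218 and 197 CPM and MKI67, the Ki-67 antigen, at 553, 586 and 666 CPM. The highest D-type cyclin per kb was CCND2, at 560, 602 and 596 CPM, and CCND3 was at 57.6, 57.2 and 55.8 CPM. CCND2 exceeded CCND3 8.36 ± 0.424 times per kb, and CCND1 had 8, 8 and 3 counts. CDK4, a kinase partner of these cyclins, exceeded CDK6 6.15 ± 0.544 times per kb, and 43.2% of its exon bases lie under TSPAN31 on the opposite strand, at 20.2 CPM.

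Inhibitors of the cycle were present beside these genes. CDKN1A, the p21 inhibitor, was at 311, 286 and 296 CPM, or 97.5 CPM per kb, close to CDK4 at 95.7. CDKN2A, which encodes p16 and ARF, was at 13.1 ± 0.355 CPM, while its neighbour CDKN2B was at 0.316 ± 0.0838. RB1, the retinoblastoma protein, was at 93.3 ± 2.43 CPM.

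Of 23 genes altered in medulloblastoma, 19 were detected. SMARCA4, the ATPase of the SWI/SNF remodelling complex, was at 544, 536 and 598 CPM and CTNNB1, beta-catenin, at 380, 357 and 304 CPM. The histone methyltransferases KMT2D and KMT2C were at 191 ± 14.2 and 37.1 ± 4.84 CPM and the demethylase KDM6A at 21.0 ± 1.88. TERT, the catalytic subunit of telomerase, was at 2.34, 3.14 and 3.52 CPM. GFI1 and GFI1B, which are switched on by enhancer hijacking in some Group 3 tumours, had at most 6 and 3 counts in any library, and PRDM6, a Group 4 counterpart, averaged 0.04 CPM. These genes and MYCN were the 4 not detected.

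Cell surface genes that antibodies, engineered T cells or radioligands address were detected in 27 of 36 cases. ERBB2, the HER2 receptor, was the highest per kb, at 269, 264 and 298 CPM and 26.8 CPM per kb. EPHA2, an ephrin receptor, was at 95.4, 100.5 and 116 CPM and TFRC, the transferrin receptor, at 244, 176 and 159 CPM. These 3 genes overlapped between libraries per kb, and TFRC was the only 1 of them highest in library 1. PVR, the poliovirus receptor, was at 55.0 ± 3.52 CPM, CD276, the checkpoint ligand B7-H3, at 71.2, 79.4 and 85.9, FOLR1, a folate receptor, at 22.2 ± 4.35, CD44 at 95.2 ± 13.5 and SSTR2, the somatostatin receptor used in imaging, at 57.2, 70.6 and 74.2.

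The enzymes that make the ganglioside GD2 were both detected, B4GALNT1 at 22.5 ± 1.25 CPM and ST8SIA1 at 17.4 ± 1.22. The glypicans GPC2 and GPC3 were at 6.46 ± 1.29 and 7.12 ± 0.134 CPM. EGFR had 2 counts in each library, the checkpoint ligand CD274 was at 0.337 ± 0.164 CPM, and IL13RA2, MSLN and NGFR had 0 counts.

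Antigen presentation genes were low. B2M, the light chain of HLA class I, was at 130.8, 119.6 and 112.2 CPM, or 19.9 CPM per kb. HLA-B was at 1.87 ± 0.0263 CPM and HLA-C at 1.67 ± 0.327, and counts of these polymorphic and similar genes depend on how reads were shared between them. None of 9 HLA class II genes was detected, and all 9 had 0 counts. Of 17 cancer-testis antigens, which in the adult are expressed mainly in germ cells, 5 were detected and 10 had 0 counts. PRAME was among the highest genes of the cells, at 523, 531 and 550 CPM, or 142 CPM per kb, rank 200. MAGEA3 at 121 ± 11.7 CPM and MAGEA6 at 88.47 ± 9.001 are near-identical copies, so their separate values are uncertain. LIN28B, a repressor of let-7 microRNAs, was at 16.2 ± 0.348 CPM.

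Genes of lineages that a pure tumour line should lack were read in the same way. All 12 reference genes were detected, from EEF1A1, the highest per kb, to the lysosomal enzyme GUSB at 23.3 CPM, or 5.83 CPM per kb, the lowest. Of 12 immune genes only CD68, a lysosomal protein of macrophages, was detected, at 1.17, 1.85 and 1.15 CPM, and 81.7% of its exon bases are shared with another transcript of the same strand. PTPRC, the pan-leukocyte CD45, averaged 0.02 CPM, and CD3E, MS4A1, AIF1, NKG7 and FCGR3A had 0 counts. The 12 immune genes together summed to between 1.87 and 2.79 CPM. In bulk RNA, few cells of a type and little RNA per cell cannot be told apart. None of 7 erythroid and 7 pluripotency and germline genes was detected.

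Single genes of other lineages were present without their companions. Of 9 endothelial and mural genes 3 were detected, PDGFRB at 15.8 ± 0.722 CPM, RGS5 at 7.97 ± 0.742 and ACTA2 at 5.85, while the endothelial CDH5 and TIE1 had 0 counts and PECAM1 averaged 0.02 CPM. Of 8 fibroblast genes 2 were detected, COL1A1 at 20.4 ± 2.19 CPM and PDGFRA at 2.41, while COL1A2, the other chain of type I collagen, was at 0.11 and COL3A1 had 0 counts. Of 7 epithelial genes 1 was detected, KRT8 at 57.2, 49.2 and 64.6 CPM, whereas KRT18, the keratin with which it pairs, had 1, 3 and 2 counts. Of 8 muscle genes 2 were detected, the factor MYOG at 8.54 ± 0.264 CPM and creatine kinase CKM at 3.47 ± 0.161, and MYOD1 averaged 0.03 CPM. Of 6 hepatic genes 1 was detected, transthyretin (TTR), at 1.75 ± 0.152 CPM.

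Among long non-coding genes the highest by CPM, which does not allow for length, were hosts of small nucleolar RNAs. SNHG29 was at 457, 499 and 496 CPM and GAS5 at 391, 442 and 400, followed by SNHG1 at 304 ± 18.4 and SNHG16 at 288 ± 9.56. TUG1 was at 251 ± 20.8 CPM and NORAD, which binds PUMILIO proteins, at 245 ± 29.3. NEAT1, the scaffold of paraspeckles, was at 172, 277 and 215 CPM and MALAT1, of nuclear speckles, at 187, 250 and 183. Both were highest in library 2, NEAT1 by 1.61-fold over library 1. SNHG14 and SNHG5 completed the 10 highest by CPM. This ranking covered long non-coding genes with a symbol and left out XIST. LINC01551 was at 40.2, 43.4 and 35.8 CPM, or 14.4 CPM per kb, which is above NEAT1 at 9.73 CPM per kb. OTX2-AS1, transcribed from the OTX2 locus, was at 4.04, 5.49 and 5.59 CPM, and MEG3, H19, LINC00461 and HOTAIRM1 had 0 counts in each library.

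The spread between the 3 control libraries sets the error of all these levels. Over the 11079 genes averaging 5 CPM or more, the median coefficient of variation (CV) was 7.17%, against 3.99% from counting alone. The CV fell from a median of 11.3% at 5 to 10 CPM to 4.79% above 1000 CPM, where counting alone gave 0.569%. The biological coefficient of variation common to all these genes was 8.42%, and it was 6.39% without library 1, 10.5% without library 2 and 8.05% without library 3. Of the 11079 genes, 388 (3.5%) differed by at least 1.5-fold between the highest and the lowest library. Without library 1 there were 67 such genes, without library 2 there were 278 and without library 3 there were 169. Library 1 was the lowest for 262 of the 388, beside 4774 of all 11079 genes (43.1%).

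**Figure D4:**
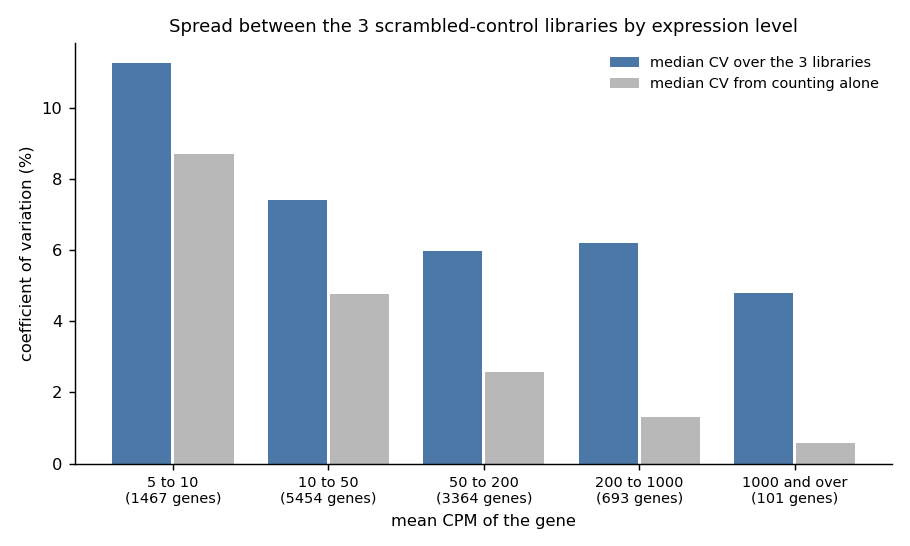
Median coefficient of variation over the 3 control libraries, in percent, by the mean CPM of the gene (blue bars), beside the median expected from counting alone (grey bars), with the number of genes in each range. The grey bars fall faster with level than the blue ones, and above 1000 CPM the medians are 4.79% and 0.569%.

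Genes of 3 stress pathways were among those that varied, and their lists were chosen after these values had been seen. The integrated stress response is the programme that ATF4 drives when amino acids are short or proteins misfold. Of 28 such genes at 5 CPM or more, 27 were lowest in library 1, beside 43.1% of all genes, and 26 were highest in library 2, beside 25.8%. At least a 1.5-fold span was seen in 16 of the 28, beside 3.5% of all genes. INHBE, an activin subunit, was at 23.9, 56.5 and 45.6 CPM, and CHAC1, which degrades glutathione, at 57.6, 117 and 96.1 CPM. DDIT4, an inhibitor of mTORC1, was at 148, 331 and 318 CPM, PCK2, a mitochondrial enzyme of gluconeogenesis, at 101, 209 and 173, and ASNS, asparagine synthetase, at 145, 267 and 203. ATF4 itself was at 953, 1042 and 977 CPM and spanned 1.09-fold.

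Hypoxia genes followed another order. Of 24 at 5 CPM or more, 20 were lowest in library 1, 23 were highest in library 3, beside 40.4% of all genes, and 11 spanned at least 1.5-fold. NDRG1, a stress protein induced by HIF, was at 67.5, 101 and 152 CPM, BNIP3, of mitophagy, at 68.0, 88.6 and 140, and PFKFB4, a regulator of glycolysis, at 11.9, 16.8 and 31.6. STC1, a secreted glycoprotein, and NDUFA4L2, a mitochondrial protein, spanned 4.21-fold and 4.36-fold at low levels of 5.62 and 6.71 CPM. CA9, another HIF target, had 0 counts. Heat shock genes ran the opposite way, with 16 of 18 highest in library 1, beside 33.8% of all genes, and 5 spanning at least 1.5-fold. HSPA8, the constitutive HSP70, was at 2097, 1517 and 1469 CPM and HSPH1 at 147, 85 and 88.8. Without library 1 the mean of INHBE was 51.0 CPM in place of 42.0, that of DDIT4 was 325 in place of 266 and that of HSPH1 was 86.9 in place of 107. Culture conditions are not recorded by library in the labels, and what set these genes apart was not tested.

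**Figure D5:**
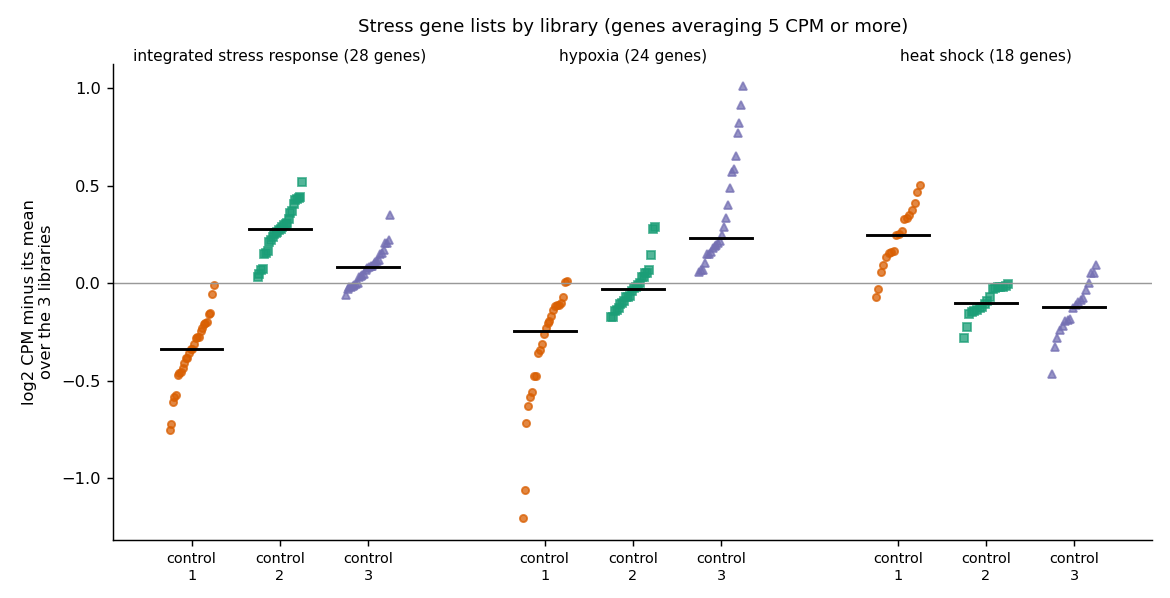
Log2 CPM of each gene minus its own mean over the 3 control libraries, for genes averaging 5 CPM or more in 3 stress lists, with 1 point per gene and a black bar at the median. Library 1 is lowest for 27 of 28 integrated stress response genes and 20 of 24 hypoxia genes, and highest for 16 of 18 heat shock genes.

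Of the 6 marker genes, IMPG2, NEUROD1, MYC, OTX2 and GABRA5 had CVs of 6.19% to 9.07%, beside a median of 7.17% over genes of all levels. By level, the median CV was 7.40% at 10 to 50 CPM, 5.98% at 50 to 200, 6.19% at 200 to 1000 and 4.79% above 1000. MYC, at 1198 CPM, had a CV of 8.72%, above the median of its level. CRX had 21.6%, beside medians of 20.6%, 19.3% and 15.5% for the integrated stress response, hypoxia and heat shock lists. The 10 genes with the largest spread included NDUFA4L2, STC1, PFKFB4, PPFIA4, AKNA and DDR2. The other 4, RGPD6, SMIM11, EIF3CL and BCL2L2-PABPN1, share sequence with near-identical copies or with the genes they read through, so their counts are uncertain. RGPD6 was at 0.410, 14.3 and 0.519 CPM. At the other end, SFPQ, a splicing and paraspeckle protein, was at 513, 515 and 515 CPM with a CV of 0.246%, below its counting error of 1.03%. CVs that small among 11079 genes measured in 3 libraries do not single out a gene as more stable than its neighbours.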

How the data were processed

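PolyA+ RNA was sequenced after miRNeasy Micro extraction and TruSeq Stranded mRNA library preparation, per the labels' protocols. According to the submitters' processing notes, the authors trimmed reads with Trim Galore 0.6.4 and used STAR 2.7.9a, RSEM and the build GRCh38.p13. Neither the annotation, the version of RSEM nor its strand setting is given in the sources used here. The deposited files hold RSEM expected counts for 60708 rows, all whole numbers. RSEM shares reads among similar genes, so counts of near-identical copies are uncertain, as are genes whose exons overlap on opposite strands.

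The 3 control libraries were used, and groups were taken from the labels. Counts of 44 pseudoautosomal Y rows were added to those of the X copies, leaving 60664 genes. Symbols matched 60463 of them and GENCODE 29 matched 58396, which gave coordinates, biotypes and merged exon lengths. CPM is the count divided by the library's total and multiplied by 1000000. A detected gene had at least 1 CPM in each library, and the spread was read on genes averaging at least 5 CPM, with edgeR 4.0.16 (R 4.3.3) giving the dispersion from an intercept-only design. The dispersion step was tested on simulated data. No test between groups was made, since only 1 group enters. Promoter windows came from RefSeq (GRCh38.p14).

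The genes and 36 lists were chosen with earlier results of these data known, and 3 stress lists were added after the spread was seen. Of 492 listed genes, 489 were found. BAGE, CCAT1 and LINC-PINT had no single identifier. Values of some list members are not reported here. Named genes are the 6 markers, the 10 highest genes by CPM, per kb and among long non-coding genes, the 4 highest detected members of each list, detected family members and MYC neighbours, and the 10 genes with the largest and the smallest spread. The rankings took genes with a symbol only, and XIST was left out of the long non-coding ranking. Further list members, and those named as low or at 0, were picked after their values were seen, for their role in the lineage. Alternatives were other detection levels, TMM and RLE scaling, totals without mitochondrial counts, the longest transcript as length, pseudoautosomal rows kept apart and each library left out.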

Additional observations from a re-analysis of the deposited data

How the results depend on the processing

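Of 33 summary and gene-level results recomputed under 179 alternative values, 17 moved by more than the spread between libraries or, for counts, by more than 1.5 times, and none of the lists recomputed changed its number of detected members by that much. With 5 CPM in each library in place of 1, 249 long non-coding genes were detected in place of 745. With the longest transcript as length, the Group 3 classifier's median percentile was 90.4 in place of 92.1, and MYC ranked 83, OTX2 134, IMPG2 1316 and NEUROD1 4375. Without mitochondrial counts in the total, IMPG2 was at 361 CPM in place of 339. With a minimum mean of 1 CPM, 1394 genes differed by at least 1.5-fold in place of 388. Leaving out each library in turn gave 67 to 278 such genes. It gave median percentiles of 35.2 to 36.6 for rod genes, 33.9 to 36.1 for cone genes and 29.4 to 31.1 for genes shared by rods and cones, and the cause was not tested. No paired analysis was possible because only the control group enters and no test was made. Depth limits genes near 3 counts, whose order cannot be read.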

Other observations

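Some gene families outside the programmes above also had single abundant members. Among 19 GABA-A receptor subunits 8 were detected with GABRA5 the highest per kb. Among 18 glutamate receptor subunits 6 were detected, led by the kainate receptor subunits GRIK3 at 44.3 ± 4.0 CPM and GRIK4 at 30.5 ± 4.9. Among 17 crystallins 2 were detected, CRYAB, a small heat shock protein, at 142, 144 and 153 CPM, and CRYBG3 at 29.8 CPM, while 9 had 0 counts. NKX6-1, a factor of ventral neural progenitors and of pancreatic beta cells, was at 28.0 ± 4.7 CPM among 3 detected of 14 NK homeobox genes. Of 381 olfactory receptor genes 3 were detected (0.787%) and 364 had 0 counts in each library. OR2W3 was the highest of them, at 11.8, 13.5 and 13.5 CPM and 13.7 CPM per kb.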
